A study of Mus musculus with 10 samples.

Results

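Peroxisome proliferator-activated receptors (PPARs) are nuclear receptors that bind fatty acids and their derivatives, pair with a retinoid X receptor on DNA, and switch on genes of lipid uptake, storage and oxidation. PPARα (Ppara) is best known from liver and other tissues that burn fatty acids, PPARδ (Ppard) is expressed in most tissues, and PPARγ (Pparg) drives the formation of adipocytes. A shared set of targets answers to one or another of these receptors. It includes Angptl4, which encodes a secreted inhibitor of lipoprotein lipase, Pdk4, whose kinase restrains the pyruvate dehydrogenase complex and so spares glucose, and Cpt1a and Cpt1b, the isoforms of carnitine palmitoyltransferase 1 that load long-chain fatty acids for entry into mitochondria. Described here are 8 genes, the 3 receptors, their partner Rxra and these 4 targets, picked by gene symbol from the 54532 genes counted. The question was whether the targets shared with Ppara and Ppard moved with Pparg.

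Whole cochleae came from mtKeima mice, a strain of mixed background that carries a pH-dependent fluorescent reporter in its mitochondria, at 12 months of age. In the NR-treated group (n = 5), nicotinamide riboside, a precursor of NAD+, had been in the drinking water at 7 mg/ml (24 mM) during 10 months of treatment begun at 2 months, while the non-treated group (n = 5) was given regular water. All mice carried the reporter, so there was no group without it, and each library was made from 1 mouse. The labels call the mice female and the methods of the study call them male. Total counts were 17060379 to 24419230 per library.

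Genes that define cochlear cells were present in every library. The summed level of 5 hair cell markers was taken in CPM (counts scaled to the normalized size of their library). It was 89.2 to 171 CPM in NR-treated and 101 to 298 CPM in non-treated mice. The highest sums, 298 and 278 CPM, were in the libraries Veh_4 and Veh_3. Genes of other tissues were present too. The sum of 12 skeletal muscle markers was 962 CPM in NR_3 and 708 CPM in NR_5, against 16.1 to 101 CPM in the other libraries. The sum of 12 adipocyte markers was 155 to 341 CPM in NR-treated mice and 114 to 149 CPM in non-treated mice, so that the groups did not overlap. For the skeletal muscle list, 8 of 10 tested genes were higher and 0 lower at an unadjusted p of 0.05 (edgeR). Of all tested genes, 4.83% were higher and 4.88% lower at that threshold. The strial list had 3 of 4 lower and the fibrocyte and supporting cell list 3 of 6 lower, with 0 higher in either, and medians of the log2 fold change of -0.63 and -0.45. The sums of the remaining lists overlapped between groups: in NR-treated against non-treated mice they were 2288 to 2593 and 1808 to 2717 CPM for spiral ganglion neurons, 539.7 to 877 and 792 to 1719 CPM for the stria vascularis, and 3160 to 4750 and 3367 to 6107 CPM for fibrocytes and supporting cells. They were 401 to 1791 and 193 to 666 CPM for bone, 138 to 394 and 172 to 235 CPM for macrophages, 122 to 144 and 101 to 131 CPM for endothelium, and 63.1 to 120.4 and 76.5 to 103 CPM for brown adipocytes. In RNA of a whole organ, fewer cells of a type and less RNA per cell cannot be told apart.

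Across all genes, 9.71% of the 18329 tested genes had an unadjusted p of 0.05 or less in the quasi-likelihood test of edgeR, with 4.83% higher and 4.88% lower in NR-treated cochlea, and the log2 fold change had a median of -0.01. Of the 8 genes, 1 reached that threshold, Pparg, and it was higher. After Benjamini-Hochberg adjustment over all tested genes, 0.0% of all genes and 0 of the 8 were called at 0.05. The Wald test of DESeq2 called 0.52% of the genes it adjusted at 0.05, and Pparg was the 1 of the 8 among them. For 0 of the 8 genes did the NR-treated and non-treated mice form groups that did not overlap, against 1.65% of all tested genes. The 8 genes had a median log2 fold change of -0.04.

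Levels of different genes were compared per length, as RPKM (the CPM per kilobase of exon), averaged over the 10 mice. Cpt1a was the most abundant of the 8 at 25.2 RPKM, followed by Rxra at 16.1 and Pdk4 at 8.48 RPKM. Ppard (5.81 RPKM) and Angptl4 (5.60 RPKM) came next, and their ranges over the mice overlapped. Cpt1b (1.35 RPKM), Pparg (1.08 RPKM) and Ppara (0.811 RPKM) were lowest, and each overlapped its neighbour in this order. The value of Cpt1b is a low estimate, since most of its exonic bases are shared with another gene; over its 628 unshared bases it was at 7.64 RPKM in NR-treated and 6.89 RPKM in non-treated mice, and its place in the order is uncertain. In this tissue the PPAR transcript at the highest level was therefore Ppard, whose lowest mouse (5.35 RPKM) lay above the highest mouse of Pparg (1.85 RPKM) and of Ppara (1.37 RPKM).

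**Figure D1:**
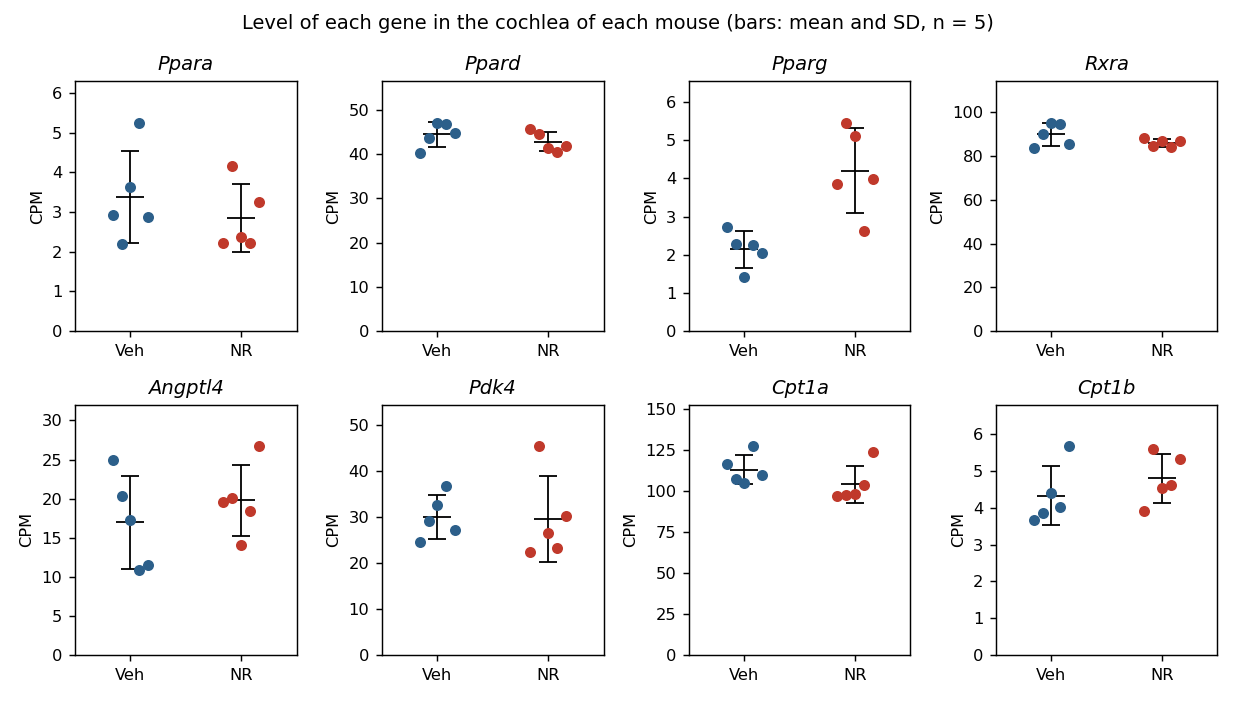
Level in CPM (linear axes from 0) of each of the 8 genes in the 5 non-treated (Veh, blue) and 5 NR-treated (NR, red) mice, with 1 point per mouse and bars at the mean and SD. For Pparg, 4 of the 5 NR-treated mice lie above every non-treated mouse. For Cpt1a, all NR-treated mice except NR_5 lie below every non-treated mouse. The ranges of the groups overlap for all 8 genes.

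Ppara (ENSMUSG00000022383, chr15:85734983-85802819, plus strand, mm10) encodes the receptor that controls fatty acid oxidation in fasted liver. It was at 2.22, 4.16, 2.38, 2.23 and 3.24 CPM in NR_1 to NR_5 and at 2.93, 2.20, 3.64, 5.25 and 2.88 CPM in Veh_1 to Veh_5. All NR-treated mice lay within the range of the non-treated ones, with the highest values in Veh_4, NR_2 and Veh_3 and the lowest in Veh_2. NR-treated mice averaged 2.85 ± 0.849 CPM and non-treated mice 3.38 ± 1.16 CPM (SD, n = 5 each). The log2 fold change was -0.25 with an SE of 0.26 and a 95% interval from -0.83 to 0.33 (edgeR, adjusted p = 0.765). The 3 mice with the highest Ppara were also the 3 with the highest summed hair cell markers, at 298, 171 and 278 CPM for Veh_4, NR_2 and Veh_3. The same 3 had the highest summed fibrocyte and supporting cell markers, at 5224, 4750 and 6107 CPM. Veh_4 and Veh_3 were also highest in summed strial markers, at 1719 and 1179 CPM. Without Veh_3 and Veh_4 the log2 fold change of Ppara was 0.10 (edgeR, adjusted p = 0.940), of the opposite sign. The part of any of these cell types in the values was not tested.

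Ppard (ENSMUSG00000002250, chr17:28232700-28301474, plus strand) encodes the receptor expressed in most tissues. Its levels were 45.6, 44.6, 41.4, 40.5 and 41.9 CPM in NR_1 to NR_5 and 40.2, 43.6, 47.1, 46.8 and 44.7 CPM in Veh_1 to Veh_5. The lowest and the highest of the 10 values were both from non-treated mice, and no mouse stood apart. NR-treated mice averaged 42.8 ± 2.19 CPM and non-treated mice 44.5 ± 2.79 CPM (SD, n = 5 each), with coefficients of variation of 5.12% and 6.28%. The 95% interval of its log2 fold change ran from -0.19 to 0.08 around a value of -0.05 (edgeR, adjusted p = 0.773).

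Pparg (ENSMUSG00000000440, chr6:115360951-115490399, plus strand) is transcribed from more than 1 start, and its adipocyte-enriched form has a promoter of its own. The counts are per gene and do not separate the starts. RefSeq (GRCm38.p6, the assembly behind mm10) lists 3 start windows for the gene in the reference used here, all on the plus strand. Their 250 upstream bases are printed because Pparg is the gene among the 8 with the largest difference, and because they carry different amounts of the receptors' own recognition letters. Capitals mark AGGTCA, the half-site that nuclear receptors of this class read, searched on both strands.
Pparg, chr6:115360894-115361143: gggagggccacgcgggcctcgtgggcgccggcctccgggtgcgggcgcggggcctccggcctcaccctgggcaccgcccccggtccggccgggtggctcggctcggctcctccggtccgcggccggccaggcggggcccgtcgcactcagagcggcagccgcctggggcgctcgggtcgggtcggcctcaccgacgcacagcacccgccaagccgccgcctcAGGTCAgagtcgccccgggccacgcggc
Pparg, chr6:115362099-115362348: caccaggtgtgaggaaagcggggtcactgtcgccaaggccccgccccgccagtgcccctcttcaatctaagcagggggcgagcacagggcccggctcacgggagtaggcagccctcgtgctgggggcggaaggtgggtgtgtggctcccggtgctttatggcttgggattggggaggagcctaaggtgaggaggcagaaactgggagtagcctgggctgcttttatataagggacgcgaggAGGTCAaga
Pparg, chr6:115421816-115422065: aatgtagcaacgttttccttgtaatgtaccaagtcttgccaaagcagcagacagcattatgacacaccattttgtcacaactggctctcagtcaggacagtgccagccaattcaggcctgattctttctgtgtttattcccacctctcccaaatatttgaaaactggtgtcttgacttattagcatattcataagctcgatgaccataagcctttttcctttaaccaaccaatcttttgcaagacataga

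The first of these windows holds the half-site 28 bases before the start and the second 9 bases before it, while the third holds none. The windows differ in base composition as well, with G and C at 82.4%, 63.6% and 40.8% of the bases. Windows were found for 6 of the 8 genes and not for Angptl4 and Cpt1b. The half-site was in 4 of the 9 windows of these 6 genes, against 14.0% of all 32851 windows of the same length: the pair of Pparg, the window of Cpt1a (94 bases before the start) and 1 window of Rxra (87 and 48 bases before the start). The full PPAR element, a direct repeat of the half-site with 1 base between (AGGTCANAGGTCA), was in 0 of the 9 windows and in 0.0335% of all windows. Such a match describes the letters and not the binding of a receptor.

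The levels of Pparg were 3.86, 5.46, 5.11, 2.62 and 3.99 CPM in NR_1 to NR_5 and 2.73, 2.29, 1.42, 2.25 and 2.04 CPM in Veh_1 to Veh_5. All NR-treated mice but NR_4 lay above every non-treated mouse, and NR_4 lay just below Veh_1, so the groups overlapped by 1 mouse on each side. On average Pparg was at 4.21 ± 1.13 CPM with NR and 2.15 ± 0.479 CPM without it (SD, n = 5 each), a fold of 1.96. Its log2 fold change was 0.97 with an SE of 0.23 and a 95% interval from 0.46 to 1.48. Its edgeR p was 0.00147 before and 0.407 after adjustment over all genes, and DESeq2 gave an adjusted p of 0.0201 with a log2 fold change of 0.98. In an exact two-sided permutation test over all labelings of the mice, the difference in mean log2 CPM gave p = 0.0159. These values rest on 35 to 122 reads per mouse.

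Several mice held the same place in Pparg and in the summed adipocyte markers. NR_2 and NR_3 had the highest Pparg and the highest marker sums, 341 and 234 CPM, and NR_4 had the lowest of the NR-treated group in both, with a sum of 155 CPM. In the non-treated group Veh_3 was lowest in both, with 114 CPM. Of the 11 adipocyte markers tested, 11 had a positive log2 fold change, as did 8640 of all 18329 tested genes. At an unadjusted p of 0.05 (edgeR), 6 were higher and 0 lower, against 4.83% and 4.88% of all tested genes. The marker Lep, too low to be tested, was at 0.306 to 1.83 CPM in NR-treated mice. In non-treated mice Lep was at 0 to 0.298 CPM, with 2 libraries at 0. Adipoq was at 7.60 to 17.1 CPM in NR-treated and 2.43 to 12.2 CPM in non-treated mice, so that the groups overlapped. NR_2 also held Ucp1, which marks brown adipocytes, at 3.85 CPM against 0 to 0.199 CPM in the other 9 libraries. Cidea, of the same brown adipocyte list, was highest in NR_2 as well, at 34.4 CPM. Elovl3 was at 0 there, and Cox8b (44.7 CPM), Cox7a1 (16.6 CPM) and Dio2 (21.0 CPM) lay inside the range of the other libraries. Without NR_2 the log2 fold change of Pparg was 0.87 (edgeR, adjusted p = 0.225). The part of adipocyte content in the difference of Pparg was not tested.

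Rxra (ENSMUSG00000015846, chr2:27676440-27762957, plus strand) encodes the retinoid X receptor α, with which each PPAR binds DNA. It was at 88.3, 84.6, 86.8, 83.9 and 86.8 CPM in NR_1 to NR_5 and at 83.8, 90.3, 95.2, 94.5 and 85.5 CPM in Veh_1 to Veh_5. All NR-treated mice lay within the range of the non-treated mice, whose 3 highest values, in Veh_3, Veh_4 and Veh_2, were above every NR-treated mouse. Means of 86.1 ± 1.77 CPM (NR-treated) and 89.8 ± 5.18 CPM (non-treated; SD, n = 5 each) gave a log2 fold change of -0.06 (SE 0.05, 95% interval -0.17 to 0.04; edgeR, adjusted p = 0.682). Its coefficient of variation was 2.06% in NR-treated mice, the lowest of the 8 genes in either group, and 5.76% in non-treated mice.

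Angptl4 (ENSMUSG00000002289, chr17:33773750-33781575, minus strand) encodes a secreted protein that inactivates lipoprotein lipase. Its levels were 19.6, 20.1, 14.1, 18.4 and 26.7 CPM in NR_1 to NR_5 and 25.0, 20.3, 17.3, 10.9 and 11.5 CPM in Veh_1 to Veh_5. NR_5 and Veh_1 were highest and Veh_4 and Veh_5 lowest, and the rest of both groups lay between them. On average it was at 19.8 ± 4.52 CPM with NR and 17.0 ± 5.94 CPM without it (SD, n = 5 each). A log2 fold change of 0.22 (SE 0.24, 95% interval -0.31 to 0.74; edgeR, adjusted p = 0.771) was within the spread of the mice. The coefficient of variation among non-treated mice, 35.0%, was the highest of the 8 genes in that group.

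Pdk4 (ENSMUSG00000019577, chr6:5483351-5496309, minus strand) encodes pyruvate dehydrogenase kinase 4, which is induced by fasting in muscle and other tissues. It was at 22.4, 45.3, 26.4, 23.2 and 30.3 CPM in NR_1 to NR_5 and at 24.5, 29.2, 32.5, 36.7 and 27.2 CPM in Veh_1 to Veh_5. NR_2 was the highest and NR_1 the lowest of the 10 mice, so that the NR-treated group spanned the non-treated one. The means, 29.5 ± 9.36 CPM and 30.0 ± 4.75 CPM (SD, n = 5 each), differed by a log2 fold change of -0.02 (SE 0.19; edgeR, adjusted p = 0.979). The 95% interval ran from -0.44 to 0.39. The sign of this small difference turned in 5 of the 10 fits that left out 1 mouse, with a range from -0.22 to 0.07.

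Cpt1a (ENSMUSG00000024900, chr19:3323301-3385732, plus strand) encodes the isoform of carnitine palmitoyltransferase 1 found in liver and many other tissues, the step at which malonyl-CoA limits fatty acid entry. Its levels were 96.9, 97.3, 98.2, 104 and 124 CPM in NR_1 to NR_5 and 116, 107, 105, 127 and 109 CPM in Veh_1 to Veh_5. All NR-treated mice except NR_5 lay below every non-treated mouse, and NR_5 was second only to Veh_4. NR-treated mice averaged 104.0 ± 11.4 CPM and non-treated mice 112.9 ± 9.0 CPM (SD, n = 5 each). With all mice included the edgeR log2 fold change was -0.12 (SE 0.08, 95% interval -0.29 to 0.06), which missed the unadjusted threshold (adjusted p = 0.646). Without NR_5 it was -0.18, past the unadjusted threshold but not the adjusted one (edgeR, adjusted p = 0.643).

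Cpt1b (ENSMUSG00000078937, chr15:89416405-89425863, minus strand) encodes the isoform of muscle, heart and brown fat. It was at 3.90, 5.59, 4.54, 4.63 and 5.32 CPM in NR_1 to NR_5 and at 3.67, 3.86, 4.41, 4.01 and 5.67 CPM in Veh_1 to Veh_5. The highest value was in Veh_5, the group ranges were almost the same, and the other 4 non-treated mice lay below all NR-treated mice but NR_1. Means of 4.80 ± 0.671 CPM and 4.32 ± 0.797 CPM (SD, n = 5 each) gave a log2 fold change of 0.15 (SE 0.16, 95% interval -0.20 to 0.49; edgeR, adjusted p = 0.763). The libraries with most skeletal muscle markers, NR_3 and NR_5, were at 4.54 and 5.32 CPM, against 3.67 to 5.67 CPM in the other libraries. The part of skeletal muscle in the level of Cpt1b was not tested. Of the exonic bases of Cpt1b, 81.4% are shared with the readthrough gene Gm44502 on the same strand, which was at 0 reads in every library, and reads assignable to both genes were not counted. Over the 628 unshared bases alone the level of Cpt1b was 7.64 ± 1.07 RPKM with NR and 6.89 ± 1.27 RPKM without it (SD, n = 5 each).

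Whether the other genes moved with Pparg was asked across the 10 mice by 7 correlations of log2 CPM, with p-values from permutation tests of 100000 resamples and adjusted over the 7. None reached an adjusted p of 0.05. The strongest was with Rxra and was negative (permutation tests, Pearson's r = -0.54, p = 0.107, adjusted p = 0.625; Spearman's rho = -0.45, p = 0.190, adjusted p = 0.380). Among the targets, r was 0.30 for Angptl4 (permutation test, p = 0.402), 0.10 for Pdk4 (p = 0.784), -0.35 for Cpt1a (p = 0.319) and 0.27 for Cpt1b (p = 0.446), with adjusted p-values of 0.625, 0.784, 0.625 and 0.625. Spearman's rho was 0.47, -0.08, -0.43 and 0.15 for these targets (permutation tests, p = 0.179, 0.840, 0.217 and 0.682, adjusted p = 0.380, 0.920, 0.380 and 0.920). The other receptors had r of -0.13 for Ppara (permutation test, p = 0.727, adjusted p = 0.784) and -0.36 for Ppard (p = 0.295, adjusted p = 0.625), with rho of -0.04 and -0.49 (permutation tests, p = 0.920 and 0.155, adjusted p = 0.920 and 0.380).

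The sign of several of these relations rested on single mice or on the group difference. Without NR_2 and NR_3, the mice farthest from the median of Pparg, r was 0.53 for Angptl4, -0.47 for Pdk4, 0.08 for Cpt1a, -0.02 for Cpt1b, -0.34 for Ppara, -0.45 for Ppard and -0.51 for Rxra. After the mean of each group was subtracted, r was 0.07 for Angptl4, 0.31 for Pdk4, 0.05 for Cpt1a and -0.04 for Cpt1b. Among the 7 genes, the centred r ranged from -0.31 for Rxra to 0.31 for Pdk4, and the smallest adjusted p was 0.911 (permutation tests within groups). With 10 mice, a moderate correlation was not detectable.

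**Figure D2:**
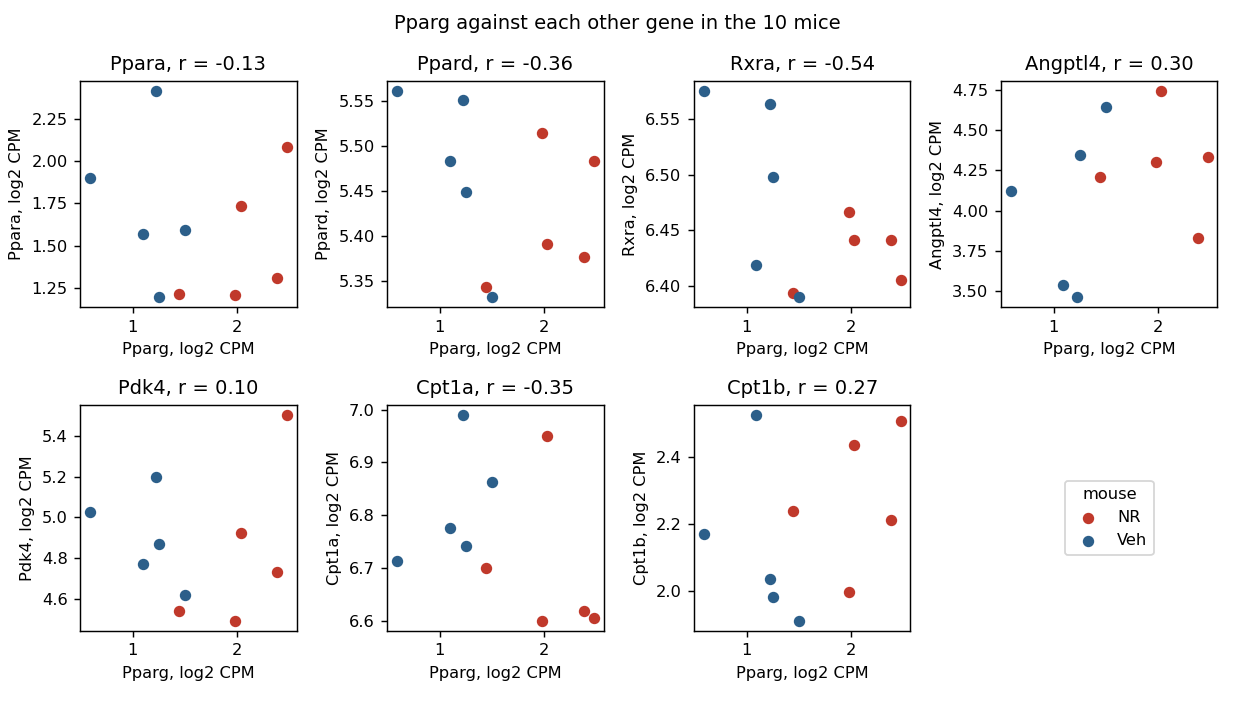
Level of each of the other 7 genes (vertical axes, log2 CPM) against that of Pparg (horizontal axes, log2 CPM) in the 10 mice, NR-treated in red and non-treated in blue, with Pearson's r above each panel. The values of r run from -0.54 (Rxra) to 0.30 (Angptl4). Along Pparg the groups overlap only through NR_4 and Veh_1, and along Cpt1a they lie apart except for NR_5.

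A ratio of genes within a library does not depend on how libraries are scaled, so 3 ratios of reads per kilobase were compared. The log2 ratio of Pparg to Ppara was 1.17, 0.77, 1.47, 0.61 and 0.68 in NR_1 to NR_5 and 0.28, 0.43, -0.97, -0.84 and -0.11 in Veh_1 to Veh_5. The groups did not overlap, the NR-treated mice being higher, and Pparg was the more abundant of the pair per length in all 5 NR-treated mice and in Veh_1 and Veh_2. The difference was 1.18, or 2.27-fold, between means of 0.94 ± 0.37 and -0.24 ± 0.64 (SD, n = 5 each). The exact two-sided permutation test gave p = 0.00794, the smallest that 5 mice against 5 allow, and an adjusted p of 0.0238 over the 3 ratios. This ratio was chosen with the difference in Pparg known. Veh_3 and Veh_4 had the highest summed markers of hair cells, of the stria, and of fibrocytes and supporting cells. Without these mice the difference was 0.74 (exact permutation test, p = 0.0357, adjusted p = 0.107). The groups then had 5 and 3 mice. There the smallest exact permutation p, 0.0179, adjusted over 3 ratios to 0.0536, could not pass 0.05. The difference was 1.12 without NR_1 and 1.05 without NR_3 (exact permutation tests, adjusted p = 0.0714 each).

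The other ratios overlapped between groups. Ppard exceeded Ppara per length in every mouse, by a log2 ratio of 2.98 ± 0.38 in NR-treated and 2.80 ± 0.42 in non-treated mice (SD, n = 5 each; exact two-sided permutation test, difference 0.18, p = 0.5, adjusted p = 0.5). For the muscle against the liver isoform of carnitine palmitoyltransferase, Cpt1b to Cpt1a, the log2 ratio was -4.09 ± 0.19 and -4.36 ± 0.30 (SD, n = 5 each; exact two-sided permutation test, difference 0.28, p = 0.127, adjusted p = 0.190). These ratios use the full length of Cpt1b; over its unshared bases they were -1.66 ± 0.19 and -1.94 ± 0.30, with the same difference of 0.28. On the full-length scale Veh_5, the mouse with the highest Cpt1b, lay within the NR-treated range at -3.92, and without it the difference was 0.39 (exact permutation test, adjusted p = 0.0357).

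**Figure D3:**
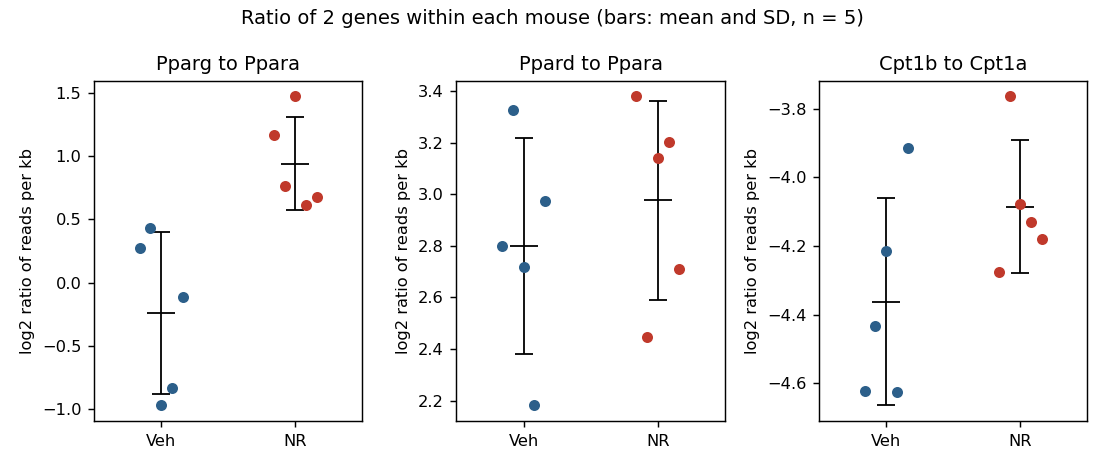
Log2 ratio of reads per kilobase of Pparg to Ppara, Ppard to Ppara and Cpt1b to Cpt1a in each non-treated (Veh, blue) and NR-treated (NR, red) mouse, with the mean and SD of 5 mice. The groups do not overlap for Pparg to Ppara, where NR-treated mice lie between 0.61 and 1.47 and non-treated mice between -0.97 and 0.43; they overlap for the other ratios.

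The wider pathway was described by lists of genes grouped by role. Of all tested genes, 4.83% were higher and 4.88% lower at the unadjusted p of 0.05 used for the lists. In the list of receptor partners and coregulators, 0 of 17 genes tested were higher and 3 were lower at an unadjusted p of 0.05, and the median log2 fold change was -0.11 against -0.01 for all tested genes. The 3 were Rxrb, another retinoid X receptor (log2 fold change -0.11, SE 0.04), Med1, a mediator subunit that receptors recruit (-0.13, SE 0.05), and Nrip1, a corepressor of metabolic genes (-0.30, SE 0.10), and their edgeR adjusted p-values were 0.458, 0.477 and 0.436. Nrip1 was at 20.4 to 24.2 CPM in NR-treated and 23.6 to 33.5 CPM in non-treated mice, overlapping only through Veh_2. The log2 fold change was below 0 for 16 of the 17, as it was for 9689 of all 18329 tested genes. Ppargc1a, the coactivator PGC-1α, was at -0.17 (edgeR adjusted p = 0.674). The count of 3 changed to 1 without NR_1, NR_4 or Veh_3, to 0 without NR_3 and NR_5, and to 6 without Veh_1. Without Veh_3 and Veh_4, the mice with the most hair cell and strial markers, 9 of the 17 were below 0, the median was -0.005, and the genes at the unadjusted threshold were Nrip1, lower, and Tbl1x, higher.

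The enzymes of fatty acid oxidation stayed within the spread of the mice. A list of 21 genes covered mitochondrial β-oxidation, its transport steps and its control by malonyl-CoA. Of these, 0 were higher and 0 lower at an unadjusted p of 0.05 (edgeR, smallest adjusted p = 0.558). The median log2 fold change was 0.002. The values ran from -0.37 for Acacb, which makes the malonyl-CoA that inhibits carnitine palmitoyltransferase, to 0.09 for the thiolase Acaa2. Hadha, a subunit of the trifunctional protein and the most abundant, was at 176.8 ± 10.1 CPM and 180.4 ± 7.88 CPM (SD, n = 5 each; log2 fold change -0.03, SE 0.05). Among 14 tested genes of peroxisomal and omega oxidation, a route that PPARα controls in liver, 0 were higher and 0 lower, with a median of -0.05. Leaving out NR_2 or Veh_1 brought 1 gene of the mitochondrial list to the unadjusted threshold. The liver targets Acot3, Cyp4a10 and Cyp4a14 were too low to be tested.

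Of 12 tested genes of other PPARα and PPARδ targets, 2 were higher and 0 lower at the unadjusted threshold, with a median log2 fold change of 0.15. Plin5, a lipid droplet protein of oxidative tissue, was at 3.42, 5.06, 2.34, 3.32 and 3.24 CPM in NR_1 to NR_5 and 2.48, 2.25, 2.55, 2.6 and 1.35 CPM in Veh_1 to Veh_5. All NR-treated mice but NR_3 lay above the non-treated ones (log2 fold change 0.63, SE 0.24; edgeR, adjusted p = 0.473). Fgf21, a hormone of fasting and stress, was at 0.786 to 1.85 CPM and 0.243 to 1.07 CPM (log2 fold change 1.17, SE 0.41; edgeR, adjusted p = 0.457). The most abundant gene, the uncoupling protein gene Ucp2, had a log2 fold change of -0.30 (SE 0.17; edgeR, adjusted p = 0.599). The count of 2 changed to 1 without NR_2, where Plin5 was at 0.46, and to 4 without NR_1 or without Veh_4.

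The targets of PPARγ and genes of the adipocyte programme gave other numbers. Of 20 tested, 12 were higher and 0 lower at an unadjusted p of 0.05, 19 of the 20 were above 0, and the log2 fold change had a median of 0.85. Without Veh_3 and Veh_4 there were 10 such genes and without NR_3 and NR_5 there were 12. Of the 12 from all mice, the lipid droplet genes Plin1 and Cidec had log2 fold changes of 3.04 (SE 0.51) and 3.04 (SE 0.45). Pck1, for glyceroneogenesis, was at 3.34 (SE 0.70), Aqp7, a glycerol channel, at 2.42 (SE 0.71), Cfd (adipsin) at 2.36 (SE 0.40), Retn (resistin) at 1.80 (SE 0.54) and Cidea, a droplet protein of brown fat, at 1.75 (SE 0.56). Fabp4, the fatty acid binding protein of adipocytes, was at 1.34 (SE 0.45), the triglyceride synthesis gene Dgat2 at 1.00 (SE 0.22), Lpl, lipoprotein lipase, at 0.99 (SE 0.34), Slc2a4, the insulin-responsive glucose transporter, at 0.43 (SE 0.17) and Agpat2 at 0.24 (SE 0.09). NR_2 carried much of some of these values: without it the log2 fold change was 2.28 for Pck1, 1.31 for Aqp7, 1.01 for Cidea and 2.41 for Plin1, and that of Slc2a4, 0.39, missed the unadjusted threshold. The smallest edgeR adjusted p among the 12 with all mice was 0.224. DESeq2 called 6 genes of this list at an adjusted p of 0.05, Plin1, Cidec, Pck1, Cfd, Lep and Dgat2. The most abundant gene, the lipase Pnpla2, was at 0.11 (SE 0.07). This list shares 10 of its 21 genes with the adipocyte markers, whose sums did not overlap between groups, and it was drawn up with the difference in adipocyte genes known.

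**Figure D4:**
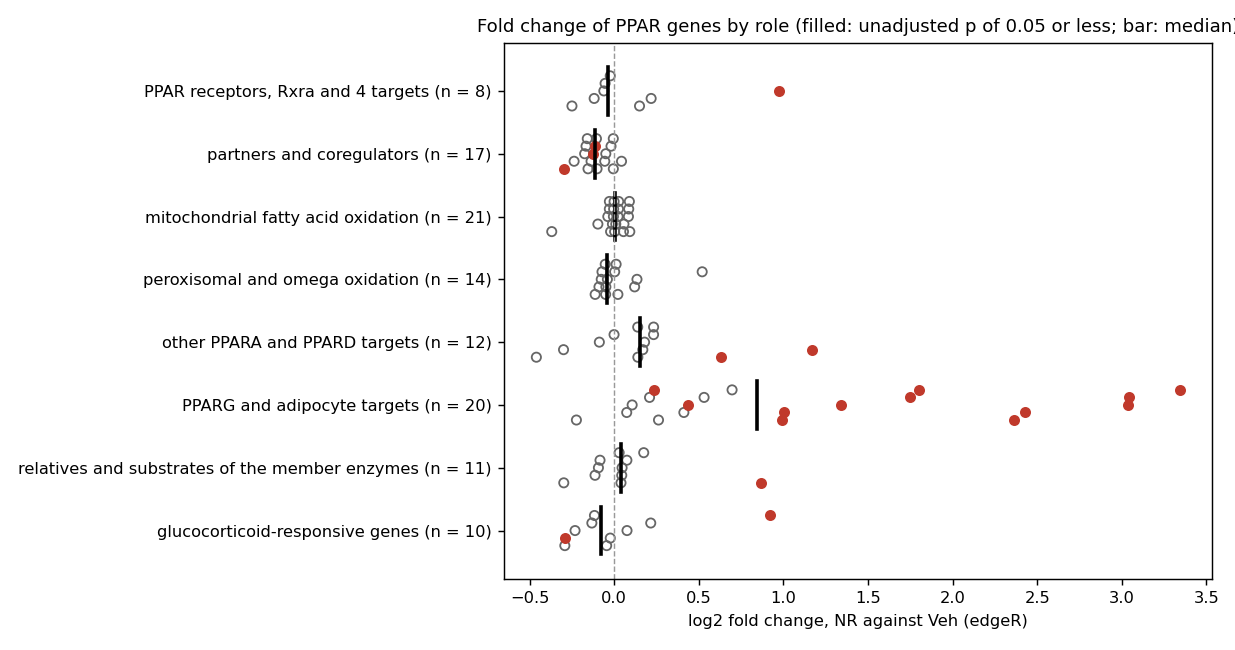
Log2 fold change of NR-treated against non-treated cochlea (horizontal axis, edgeR) for each tested gene of 8 groups of PPAR-related genes, with filled points at an unadjusted p of 0.05 or less and a bar at the median of each group. The filled points on the right belong mostly to the PPARγ and adipocyte targets (12 of 20, median 0.85). The 21 genes of the mitochondrial oxidation list lie between -0.37 and 0.09. None of them is filled, and the lowest is Acacb.

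Relatives and substrates of the 4 target proteins showed little difference. Of 11 tested, 1 was higher and 0 lower at the unadjusted threshold, against 4.83% and 4.88% of all tested genes, with a median of 0.04. That gene was Gpihbp1, the endothelial anchor of the lipoprotein lipase that Angptl4 inhibits (log2 fold change 0.86, SE 0.32; edgeR, adjusted p = 0.464), and its mice lay at 3.49 to 7.38 CPM and 1.32 to 4.26 CPM. Pdha1, the most abundant and the subunit that Pdk4 phosphorylates, had a log2 fold change of 0.03 (SE 0.06). Cpt1c, the brain isoform, was at 53.7 ± 2.36 CPM and 52.1 ± 3.40 CPM (SD, n = 5 each; log2 fold change 0.04). Angptl4 and Pdk4 also answer to glucocorticoids, so 10 genes of that response were read as well: 1 was higher, the metallothionein Mt2 (0.92, SE 0.31), and 1 lower, the kinase Sgk1 (-0.29, SE 0.11), with edgeR adjusted p-values of 0.440 and 0.476. Mt2 was below 1 CPM in every mouse, Mt1, the most abundant of the list, was at 0.08 (SE 0.10), and the median of the list was -0.08. These counts moved with single mice too. Without NR_2, the mouse with the highest Gpihbp1, that gene was at 0.67 and missed the unadjusted threshold, and Pdk1, another kinase of the family of Pdk4, passed it at -0.43. The counts went to 3 relatives without Veh_2 or Veh_5 and to 5 glucocorticoid genes without Veh_1.

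For each gene, the tested genes with the most similar pattern over the 10 mice were found, as a description. The measure was the correlation of log2 CPM after each group's mean was subtracted. Each r was picked as one of the highest over all tested genes, so its size alone means little, and it was not tested. Closest to Pparg were Wasf1 (r = 0.95), Golga7 and Ccdc6 (r = 0.94 each). For Ppara they were Rbl2 (r = 0.97), Strn3 (r = 0.96) and Ccdc141 (r = 0.95). Ppard was nearest to Auts2, Wrnip1 and Tex261 (r = 0.93 to 0.94), and Rxra to Slc25a10, Spats2l and Ccdc28b (r = 0.95 to 0.97). The nearest genes of the targets were Crnkl1, Tusc1 and Xlr for Angptl4 (r = 0.90 to 0.92), Rnf24 and Ddx3x for Pdk4 (r = 0.96 to 0.97), Bbs9, Gpatch2l and Chd1l for Cpt1a (r = 0.88 to 0.93), and Snn, AU023762 and Zfp521 for Cpt1b (r = 0.92 to 0.93).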

How the data were processed

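RNA-seq of the cochlea was read from 10 deposited count tables, 1 per mouse. According to the methods, labels and processing notes, the sequencing provider filtered the reads, aligned them to mm10 with STAR 2.6.1d and counted them per gene with featureCounts 1.5.0 in its default mode, which ignores strand and drops reads shared by genes. The authors deposited the raw counts without normalization. The annotation release is not given in the sources used here.

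From these counts, CPM and RPKM (the CPM per kilobase of the deposited gene length) were computed. CPM used the library size over the genes passing the filter below, multiplied by the TMM factor of the library. Genes passing filterByExpr (18329 of 33224 with a read) were TMM-normalized and tested with the quasi-likelihood test of edgeR 4.0.16 (R 4.3.3), for NR against Veh without covariates, with Benjamini-Hochberg adjustment over all of them. The edgeR and DESeq2 tests were also run on simulated counts. These were drawn with the mean levels, library sizes and common biological coefficient of variation of these data, and their outcome is not reported here. DESeq2 1.42.0 was an alternative to edgeR, along with its size factors, other filters, a robust fit, the replicate number as a block and leaving out each mouse. Log2 CPM used a prior count of 2 and ratios 0.5. Permutation tests used python 3.11.15 and scipy 1.17.1. No libraries were duplicates. The common biological coefficient of variation was 0.207.

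The 8 genes, the 7 pathway lists and the 10 marker lists were chosen with earlier results of these data known. From each pathway list the genes at an unadjusted p of 0.05 and the most abundant were named, and for each of the 8 genes the 3 most similar; predicted genes named Gm or Rik were skipped there. Some genes that this rule names are not reported here. Ppargc1a, Tbl1x, Pdk1, Acacb, Acaa2, Cpt1c, Lep, Adipoq, Ucp1, Elovl3, Cox8b, Cox7a1 and Dio2 were named after their values were seen. The number of mice limits the precision, and the p-values set a difference or a correlation against the variation between these mice.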

Additional observations from a re-analysis of the deposited data

Results flagged for a closer look

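In 1 of 22 sets of 5 values examined for a value apart from its group, the extreme mouse exceeded Dixon's 95% criterion, which chance alone passes in about 1 of 20 such sets. It was the level of Cpt1a in NR_5, at 123.6 CPM, while the other 4 NR-treated mice lay between 96.9 and 104 CPM. NR_5 also had the highest Angptl4 of the 10 mice, at 26.7 CPM, the smallest library, with 17060379 reads, and skeletal muscle markers summing to 708 CPM. The part of these in the level of Cpt1a was not tested.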

How the results depend on the processing

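Of 436 values recomputed under another setting, 375 kept their direction and their side of the threshold or stayed within 1.5 times the count. The log2 fold change of Pparg stayed above 0 throughout, at 0.87 to 1.11 without each mouse in turn (edgeR adjusted p = 0.151 to 0.751), and passed an adjusted p of 0.05 with DESeq2 alone (0.98). Without Veh_3 and Veh_4, a choice made after seeing the data, the log2 fold changes of Ppara (0.10), Ppard (0.0055) and Pdk4 (0.14), the log2 ratio of Ppard to Ppara (-0.057), and the correlations of Pparg with Ppara (0.41) and Ppard (0.085) changed sign, the ratio of Pparg to Ppara differed by 0.74, and the counts were 4 for other PPARα and PPARδ targets and 0 for glucocorticoid genes. Without NR_3 and NR_5, chosen likewise, Pdk4 changed sign (0.026), that ratio differed by 1.09, and the counts were 2 for the 8 genes, 0 for partners, 1 for other targets and 0 for glucocorticoid genes. In both cases that ratio had an adjusted p of 0.107 (exact permutation tests). With 5 and 3 mice it could not pass an adjusted p of 0.05 (smallest 0.0536). With every gene that had a read, partners gave 1 and relatives 2; DESeq2 gave 2 relatives; at least 1 CPM in 5 mice left 1 glucocorticoid gene. After centring by group, the correlations with Ppara (0.19), Cpt1a (0.045) and Cpt1b (-0.041) changed sign.

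Leaving out 1 mouse at a time, log2 fold changes ranged from -0.42 to -0.03 for Ppara, -0.08 to -0.02 for Ppard, -0.08 to -0.03 for Rxra, 0.10 to 0.40 for Angptl4, -0.22 to 0.069 for Pdk4, -0.18 to -0.07 for Cpt1a and 0.09 to 0.26 for Cpt1b. Counts at an unadjusted p of 0.05 ranged from 1 to 2 for the 8 genes, 1 to 6 for partners, 0 to 1 for mitochondrial oxidation, 1 to 4 for other targets, 11 to 13 for PPARγ targets, 1 to 3 for relatives and 1 to 5 for glucocorticoid genes. Without Veh_1 there were 6 partners and 5 glucocorticoid genes, and without NR_1, NR_4 or Veh_3 there was 1 partner. The correlation of Pparg ranged from -0.41 to 0.026 with Ppara and -0.44 to 0.26 with Pdk4. The ratio of Pparg to Ppara differed by 1.00 to 1.35 and missed an adjusted p of 0.05 without NR_1 (1.12) or NR_3 (1.05), that of Ppard to Ppara by 0.02 to 0.31, and that of Cpt1b to Cpt1a by 0.20 to 0.39, past the threshold without Veh_5. The cause of these changes was not tested.

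The replicate numbers did not pair the mice: the correlation of same-numbered mice ranged from -0.22 to 0.17, and 1 of 5 had its own number as best partner. With the replicate number as a block, Pparg was at 0.96 (edgeR adjusted p = 0.529), there was 1 partner and 1 gene of mitochondrial oxidation, and the ratio of Pparg to Ppara differed by 1.18 (exact sign-flip permutation test, p = 0.0625, the smallest that 5 pairs allow; adjusted p = 0.188). The low counts of Ppara (46 to 119 reads) and Pparg (35 to 122 reads) limit the precision of both.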
